A study of Homo sapiens with 8 samples.

Results

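The genes described here encode proteins of the extracellular matrix: fibronectin, other matrix glycoproteins and proteoglycans, collagens, the laminin chains that do not belong to laminin-332, and the fibrillins, latent TGF-beta binding proteins and fibulins of the microfibrils. They are a list of 38 gene symbols, all 38 of which were found among the 15852 genes of the count table. RNA was sequenced from KYSE150, an established line of human esophageal squamous cell carcinoma, in 4 control libraries (genotype label Control) and 4 libraries in which a short hairpin RNA targeted BOLA3-L (genotype label ShBOLA3-L). The labels give the treatment as none in both groups and do not say which hairpin, if any, the control cells carried. All libraries come from 1 line, and whether replicates were grown apart is not stated in the labels. The p-values therefore measure only the spread between these libraries, which may be technical. The study, by its title, concerns exon 3 of BOLA3, which the RNA-binding protein HNRNPC promotes to be included, and the question here is how the matrix genes differ between the ShBOLA3-L and control libraries.

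Epithelial cells rest on a basement membrane, a sheet in which laminin trimers and a collagen IV network are joined by nidogens and by the proteoglycans perlecan and agrin. The interstitial matrix beyond it is built mainly by fibroblasts from fibrillar collagens, with fibronectin, tenascin, thrombospondin and other glycoproteins that cells bind through integrins. Squamous carcinoma cells make much of their own basement membrane and part of the interstitial glycoproteins, while fibrillar collagens and small leucine-rich proteoglycans come largely from the stroma around them.

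Total counts lay between 31178036 and 35147860 per library, so that 3 counts correspond to 0.0851 to 0.0969 CPM (counts divided by effective library size). Control replicates 1 to 4 gave 21.6, 19.1, 20.5 and 21.8 CPM of BOLA3, the targeted gene, and knockdown replicates 1 to 4 gave 6.06, 6.64, 6.33 and 7.29 CPM, or 31.7% of control (exact two-sided permutation test, p = 0.0286, the smallest that 70 assignments allow). These counts are for the whole gene and do not show which isoform fell. BOLA3-L knockdown replicate 1 stood apart from the other knockdown libraries on the second principal component (20.1 against -10.1 to -4.81). In that library GC-rich transcripts were low: among tested genes with at least 60% GC it was the lowest of the 4 knockdown libraries in 83.3%, against 27.3% of the other tested genes. The same held among the matrix genes, where it was the lowest in 11 of 12 tested members with at least 60% GC and in 6 of the other 19. All 15 squamous epithelial marker genes were tested, of which 11 fell (73.3%) and 1 rose (6.67%) after knockdown. Over all tested genes 15.6% fell and 15.0% rose (edgeR adjusted p under 0.05). The markers had summed levels of 7189 to 7268 CPM in controls and 5067 to 5571 CPM after knockdown. The part of this shift in the matrix values was not tested. The controls had KRT5, a basal keratin, at 3132 ± 11.2 CPM (SD, n = 4) and TP63, the basal lineage transcription factor, at 309 ± 5.33 CPM (SD, n = 4). Of 11 fibroblast markers 10 were listed and 7 stayed under 1 CPM in every library, among them COL1A2, COL3A1, DCN, PDGFRA and PDGFRB, and the summed level of the list was 42.7 to 48.3 CPM in controls and 44.0 to 48.6 CPM after knockdown, most of it from PDPN, which squamous cells also express. Of 7 endothelial markers 6 were listed, 5 of these stayed under 1 CPM in every library, and their sum was 1.00 to 1.91 CPM in controls and 1.96 to 2.58 CPM after knockdown, where CDH5 was tested and rose (0.79, edgeR adjusted p 0.012). Of 7 leukocyte markers 6 stayed under 1 CPM, and the sum, nearly all CD68, was 77.7 to 84.6 CPM and 73.9 to 79.6 CPM. Fewer cells making a transcript and less transcript per cell cannot be told apart in these libraries.

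Of the 38 matrix genes 31 had enough counts to be tested. After knockdown 4 rose, 10 fell and 17 did not pass the test (edgeR quasi-likelihood test, Benjamini-Hochberg adjusted p under 0.05 over all 11841 tested genes). The 4 that rose were FN1, MATN2, FBLN1 and COL18A1, and the 10 that fell were LUM, SPARC, COL1A1, MXRA5, TNC, LAMB1, COL7A1, COL4A5, LAMC1 and LAMB2. Over all tested genes 30.7% were called, 15.0% as rises and 15.6% as falls. Among the tested matrix genes 12.9% rose and 32.3% fell. Their median log2 change was -0.05, against 0.00 over all tested genes. The tested matrix genes had a higher median level (62.9 against 38.4 CPM over all tested genes) and longer transcripts (median 6586 against 3425 bases). CPM are not scaled by transcript length. The part of level and length in the shares called was not tested. In 14 tested matrix genes the groups did not overlap in CPM, where 30.2% of all tested genes had no overlap. These were COL4A1, which did not pass, and 13 of the 14 called genes, all but LUM. Of all tested genes 25.8% were called and had no overlap, and of the tested matrix genes 41.9%. The counts by role given below rest on 2 to 7 tested genes each. They are to be read beside the 15.0% that rose and 15.6% that fell over all tested genes.

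**Figure D1:**
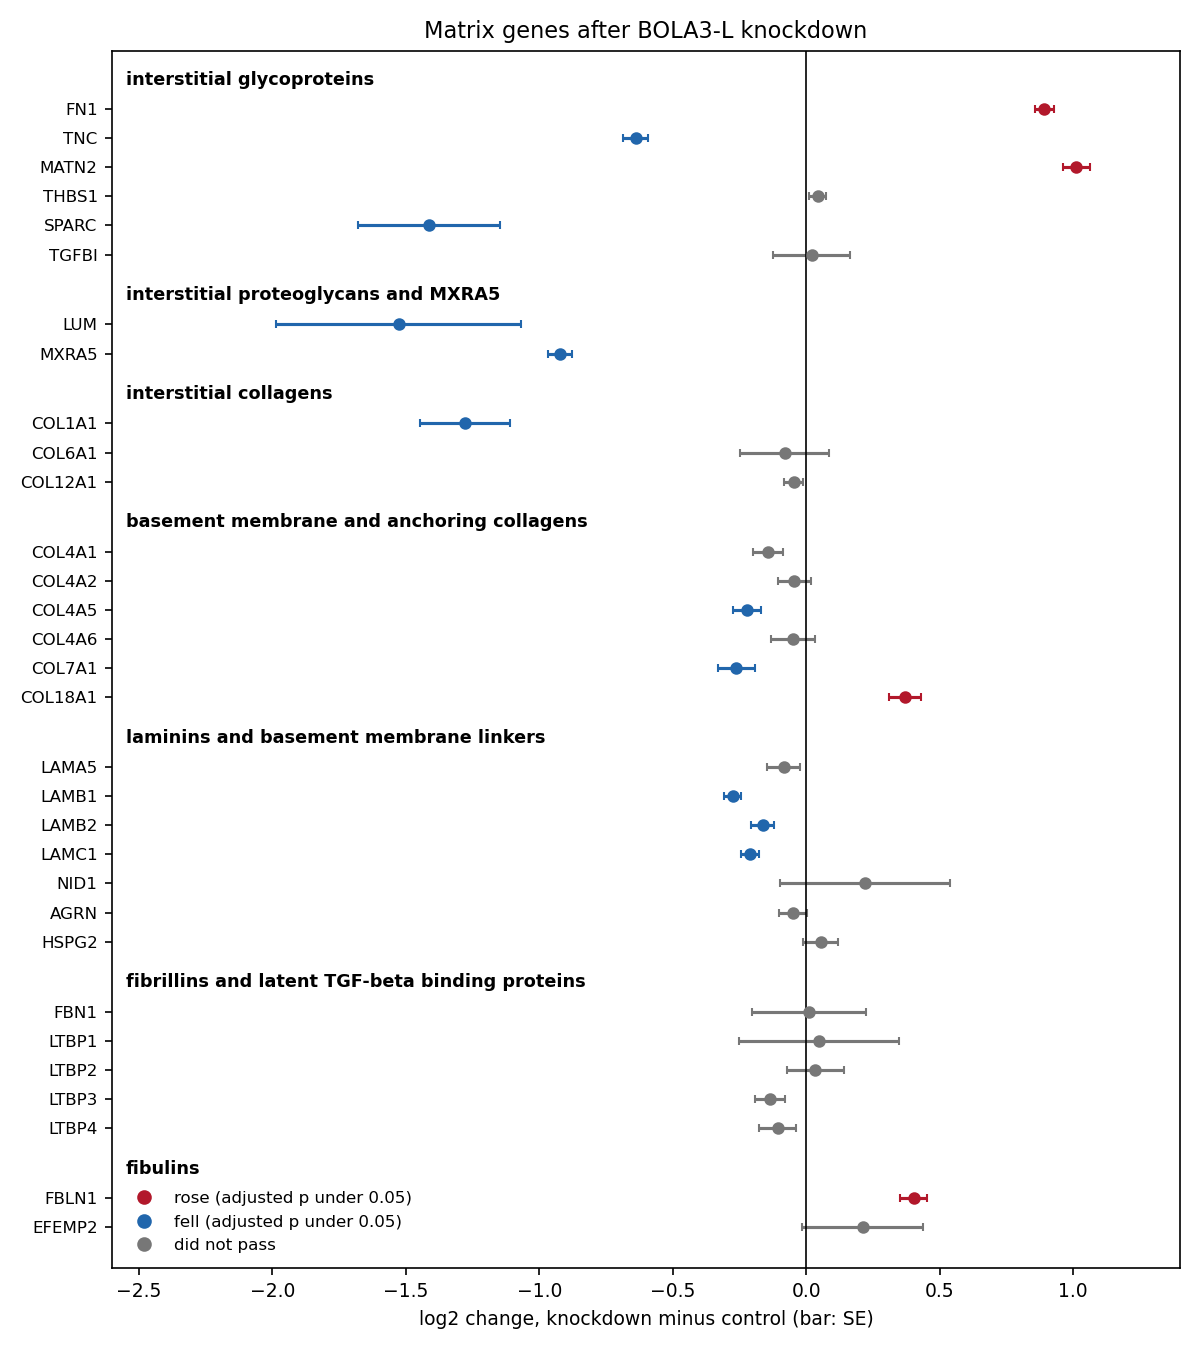
Log2 change (knockdown minus control) of the 31 tested matrix genes with its standard error, grouped by role; red points rose, blue points fell and grey points did not pass the edgeR test. FN1 (0.89) and MATN2 (1.01) lie far to the right within the glycoproteins, while the basement membrane and anchoring collagens and the laminins and linkers lie between -0.28 (LAMB1) and 0.37 (COL18A1).

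The regions upstream of the genes with the clearest changes are shown so that the rising and falling genes can be set side by side. They are the 250 bases before the RefSeq start (GRCh38.p14), 5′ to 3′ on the gene's own strand, for 2 genes that rose (FN1, chr2:215436069-215436318, minus strand, and FBLN1, chr22:45502633-45502882, plus strand) and 2 that fell (TNC, chr9:115118158-115118407, minus strand, and MXRA5, chrX:3346653-3346902, minus strand). Capitals mark matches, on either strand, to the GC box GGGCGG, the CCAAT box CCAAT, the cyclic AMP response element TGACGTCA, the TATA box TATAAA, the AP-1 site TGANTCA and the TEAD site CATTCC. Adjacent matches can overlap and then form 1 run of capitals.
FN1: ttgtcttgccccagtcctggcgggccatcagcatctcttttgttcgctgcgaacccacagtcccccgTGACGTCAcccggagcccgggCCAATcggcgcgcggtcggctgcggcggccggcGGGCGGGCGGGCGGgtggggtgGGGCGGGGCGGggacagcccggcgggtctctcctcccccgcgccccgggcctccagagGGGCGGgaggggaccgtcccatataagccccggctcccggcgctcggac
FBLN1: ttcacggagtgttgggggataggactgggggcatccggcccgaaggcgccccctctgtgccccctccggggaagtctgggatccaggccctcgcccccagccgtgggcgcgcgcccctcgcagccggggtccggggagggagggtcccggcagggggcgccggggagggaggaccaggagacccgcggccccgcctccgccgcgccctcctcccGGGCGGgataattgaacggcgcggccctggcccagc
TNC: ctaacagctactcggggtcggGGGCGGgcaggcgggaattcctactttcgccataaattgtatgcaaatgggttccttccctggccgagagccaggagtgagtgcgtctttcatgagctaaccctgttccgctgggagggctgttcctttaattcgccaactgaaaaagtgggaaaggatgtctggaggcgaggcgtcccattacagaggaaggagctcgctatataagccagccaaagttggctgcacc
MXRA5: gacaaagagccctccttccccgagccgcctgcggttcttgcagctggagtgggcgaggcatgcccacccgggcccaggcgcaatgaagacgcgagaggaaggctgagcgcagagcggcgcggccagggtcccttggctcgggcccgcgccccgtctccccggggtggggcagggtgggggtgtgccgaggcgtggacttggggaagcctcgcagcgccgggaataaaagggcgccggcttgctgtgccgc
The FN1 window held 6 GC boxes, a CCAAT box that begins at -162 and a cyclic AMP response element that begins at -183, counted so that -1 is the base before the start. FBLN1 and TNC had 1 GC box each, at -36 and -229, and MXRA5 had no exact match to these motifs. Only exact matches were searched, so a TATA-like stretch with other letters is not marked. Of 35116 promoters in the table, 42.6% held a GC box in the same window, 32.0% a CCAAT box, 1.65% a cyclic AMP response element, 10.7% a TATA box, 6.57% an AP-1 site and 11.9% a TEAD site. The table held 32 of the 38 matrix genes. At 1 or more of their listed starts 26 of these had a GC box and 9 a CCAAT box. A cyclic AMP response element was found in 2 (FN1 and LTBP1). Counted the same way, a TATA box was in 4 genes, an AP-1 site in 1 and a TEAD site in 5. The shares above are per start and these counts per gene, so they cannot be set against each other. Of the 32 genes, a GC box was present in 3 of 3 that rose, 5 of 8 that fell and 13 of 15 that did not pass. MATN2, COL1A1, LUM, AGRN, COL6A1 and EFEMP1 had no entry.

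Among the interstitial glycoproteins, 2 of 6 tested members rose, 2 fell and 2 did not pass. FN1 encodes fibronectin, the dimeric glycoprotein that cells assemble into fibrils through integrins (identifier 2335, chromosome 2, 215360865 to 215436068, minus strand, GRCh38). Control replicates 1 to 4 had 164, 173, 173 and 171 CPM, and knockdown replicates 1 to 4, in the same order as for all genes here, had 318, 305, 321 and 319.6 CPM. The 2 groups were far apart, and knockdown replicate 1 lay among the other knockdown libraries. This is a log2 change of 0.89 (SE 0.035, edgeR adjusted p 2.2e-12), or 186% of the control level. MATN2 encodes matrilin-2, an adaptor that links filaments of the matrix (identifier 4147, chromosome 8, 97869064 to 98036724, plus strand). It had 27.1, 27.2, 29.5 and 28.5 CPM in the controls and 57.5, 58.7, 56.0 and 54.4 CPM after knockdown. This was the largest rise of the list, shared by all 4 knockdown libraries (202% of control, log2 change 1.01, SE 0.052, edgeR adjusted p 8.5e-11).

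TNC and SPARC moved the other way. TNC encodes tenascin-C, a large multi-armed glycoprotein of remodelling tissue that modulates adhesion to fibronectin (identifier 3371, chromosome 9, 115019575 to 115118157, minus strand). Its CPM was 139.8, 144, 143 and 136 in the controls and 82.0, 92.8, 95.8 and 91.0 after knockdown, with no overlap. TNC had a log2 change of -0.64 (SE 0.047, edgeR adjusted p 1.2e-08). SPARC encodes osteonectin, a collagen-binding matricellular protein (identifier 6678, chromosome 5, 151661096 to 151686915, minus strand). It was low in every library, with 126, 110, 56 and 63 counts in the controls and 29, 47, 35 and 30 counts after knockdown. Control replicates 1 and 2 lay well above control replicates 3 and 4 (4.07, 3.47, 1.70 and 1.91 CPM in replicates 1 to 4), and all 4 lay above the knockdown libraries (0.919, 1.33, 1.02 and 0.882 CPM). SPARC had a log2 change of -1.41 (SE 0.27, edgeR adjusted p 0.00055), but -0.45 by limma on log2(FPKM + 1), a scale that shrinks low genes.

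The most abundant matrix transcript did not pass the test. THBS1 encodes thrombospondin-1, a trimeric glycoprotein that binds cells and activates latent TGF-beta (identifier 7057, chromosome 15, 39581079 to 39599466, plus strand). It had 2670.4, 2806, 2828 and 2866 CPM in the controls and 2956, 2803, 2942 and 2810.0 CPM after knockdown. The groups overlapped, and THBS1 had a log2 change of 0.04 (SE 0.032, edgeR adjusted p 0.321). TGFBI, the TGF-beta-induced adhesion protein, had 3.09 ± 0.370 CPM and 3.13 ± 0.206 CPM (SD, n = 4 each; adjusted p 0.932). POSTN, which encodes the fibroblast protein periostin, had 3 counts in all control libraries together and 2 in all knockdown libraries, and was not tested.

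**Figure D2:**
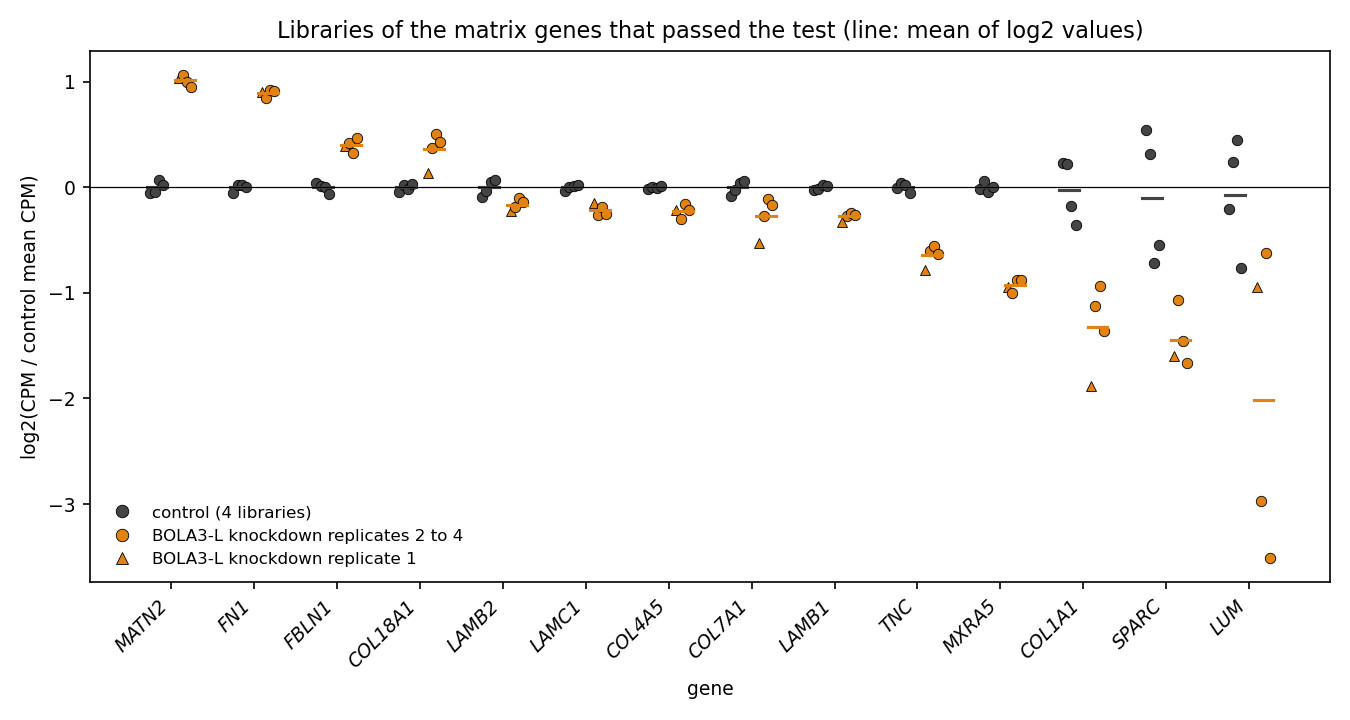
Level of the 14 matrix genes that passed the test in each library, as log2 of CPM over the control mean; grey points are the 4 control libraries, orange points the 4 knockdown libraries, with replicate 1 as a triangle, and the line is the mean of the log2 values. The groups are apart in every gene except LUM, and the triangle lies below the other knockdown points in COL18A1, COL7A1, TNC, COL1A1, LAMB1 and LAMB2.

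Of the interstitial proteoglycans and MXRA5, both tested members fell. MXRA5 encodes adlican, a large leucine-rich and immunoglobulin-domain protein of the matrix (identifier 25878, chromosome X, 3308565 to 3346652, minus strand); 4.37% of its sequence windows also occur in another gene. It had 110.0, 115, 107 and 111 CPM in the controls and 57.7, 55.5, 60.4 and 60.4 CPM after knockdown. All 4 knockdown libraries lay far below the controls (52.8% of the control mean), at a log2 change of -0.92 (SE 0.044, edgeR adjusted p 3.8e-11). LUM encodes lumican, a small leucine-rich proteoglycan that binds collagen fibrils. Control replicates 1 to 4 held 18, 25, 30 and 13 of its counts, and knockdown replicates 1 to 4 held 11, 3, 15 and 2. These groups overlapped, since control replicate 4 (0.395 CPM) was lower than knockdown replicate 3 (0.436 CPM). The log2 change of -1.53 (SE 0.46, edgeR adjusted p 0.0166) rests on these few counts, and the call was lost without control replicate 2 (log2 change -1.44, adjusted p 0.0579), without control replicate 3 (-1.34, 0.0657), without BOLA3-L knockdown replicate 2 (-1.24, 0.0623), and on log2(FPKM + 1) with no minimum (-0.20, 0.0504; adjusted p 0.00204 to 0.0657 over its 16 alternatives). VCAN, the large proteoglycan versican, had 10 counts in all control libraries and 10 in all knockdown libraries, and BGN, the small proteoglycan biglycan, had 1 and 0. Neither was tested.

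Of the interstitial collagens 3 of 5 were tested, and 1 fell. COL1A1 encodes the alpha 1 chain of collagen I, the main fibrillar collagen of stroma (identifier 1277, chromosome 17, 50184101 to 50201631, minus strand). It had 13.7, 13.6, 10.3 and 9.15 CPM in the controls and 3.17, 5.36, 6.10 and 4.56 CPM after knockdown. The groups did not overlap, although the controls themselves spread from 9.15 to 13.7 CPM. COL1A1 had a log2 change of -1.28 (SE 0.17, edgeR adjusted p 3.4e-05), or -1.13 without BOLA3-L knockdown replicate 1. That replicate was the lowest of the knockdown libraries. By limma COL1A1 changed by -0.70 on log2(FPKM + 1) and by -1.18 on log2(FPKM + 0.1). COL1A2, its partner chain in the collagen I trimer, stayed under 1 CPM in every library, as did the fibroblast collagen COL3A1. COL12A1, a collagen that associates with fibrils, was far more abundant and had 196, 200.1, 203 and 208 CPM in the controls and 197, 193, 201 and 191 CPM after knockdown. Its groups overlapped, and COL12A1 had a log2 change of -0.05 (SE 0.036, edgeR adjusted p 0.359).

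Of the 2 collagen VI chains on the list, COL6A1 had 2.91 ± 0.457 CPM and 2.74 ± 0.461 CPM (SD, n = 4 each; log2 change -0.08, SE 0.17, edgeR adjusted p 0.756). COL6A2, which forms a trimer with it, had 0 counts in all control libraries and 2 in all knockdown libraries, both in replicate 1. COL5A1, a chain that sets the diameter of collagen I fibrils, had 0 and 1. For both genes the groups lie at or under the limit that 3 counts allow in 1 library (0.0851 to 0.0969 CPM), so no change could be read.

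The basement membrane and anchoring collagens were all tested: 1 rose, 2 fell and 3 did not pass. COL18A1 encodes collagen XVIII, a basement membrane collagen that carries heparan sulfate and whose end fragment is endostatin (identifier 80781, chromosome 21, 45405165 to 45513720, plus strand). It had 67.4, 70.7, 68.5 and 71.1 CPM in the controls and 76.5, 89.9, 98.8 and 93.6 CPM after knockdown. The groups did not overlap, and replicate 1 was the lowest of the knockdown libraries. Its log2 change was 0.37 (SE 0.061; edgeR adjusted p 0.00014), or 0.44 without BOLA3-L knockdown replicate 1. Exons of SLC19A1 on the opposite strand overlap 16.4% of the COL18A1 exon bases, and whether the counting used strand is not given in the sources used here. SLC19A1 stood at 47.5 ± 1.18 CPM and 47.0 ± 2.88 CPM (SD, n = 4 each; adjusted p 0.852). Such overlaps also cover 11.7% of HSPG2, 7.89% of SPARC and 7.58% of THBS1.

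COL7A1 encodes collagen VII, the anchoring fibril that ties the epithelial basement membrane to the tissue beneath (identifier 1294, chromosome 3, 48564073 to 48595329, minus strand). Its CPM was 102, 106, 111 and 113 in the controls and 74.8, 89.3, 99.8 and 96.1 after knockdown. All knockdown libraries lay below all controls, replicate 1 the furthest. COL7A1 had a log2 change of -0.26 (SE 0.069, edgeR adjusted p 0.00864), or -0.18 without BOLA3-L knockdown replicate 1. The call was lost with offsets corrected for transcript length (adjusted p 0.0544) and on log2(FPKM + 1) with no minimum (0.0822; 3.23e-07 to 0.0822 over its 19 alternatives).

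Collagen IV forms the network of the basement membrane from trimers of 2 alpha 1 and 1 alpha 2 chain or of 2 alpha 5 and 1 alpha 6 chain. The genes of each pair lie head to head, so the stretch between their starts is upstream of both. Between COL4A1 and COL4A2 it spans 126 bases (chr13:110307158-110307283, GRCh38.p14), shown here 5′ to 3′ toward COL4A2, with the same motifs in capitals.
COL4A1-COL4A2: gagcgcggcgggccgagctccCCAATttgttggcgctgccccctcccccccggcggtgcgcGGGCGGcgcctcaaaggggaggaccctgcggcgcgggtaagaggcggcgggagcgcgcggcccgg
This stretch had 80.2% GC, 1 CCAAT box and 1 GC box, and the starts of COL4A6 and COL4A5 lie 379 bases apart. COL4A1 had 61.1, 60.5, 61.3 and 57.7 CPM in the controls and 47.6, 57.6, 55.0 and 57.5 CPM after knockdown, whereas COL4A2 had 106, 106, 115 and 106 CPM in the controls and 88.8, 108, 112 and 112 CPM after knockdown. The COL4A1 groups were adjacent without overlapping and those of COL4A2 overlapped. Neither passed the test, with log2 changes of -0.14 (SE 0.057, edgeR adjusted p 0.0642) and -0.04 (SE 0.060, 0.622).

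COL4A5 (identifier 1287, chromosome X, 108439838 to 108697545, plus strand) had 37.8, 38.3, 38.1 and 38.6 CPM in the controls and 32.9, 31.1, 34.2 and 33.0 CPM after knockdown. The controls had an SD of only 0.337 CPM and all knockdown libraries lay below them, at a log2 change of -0.22 (SE 0.051, edgeR adjusted p 0.0029). Its neighbour COL4A6 had 19.8, 18.0, 19.3 and 18.5 CPM in the controls and 15.1, 19.6, 20.6 and 17.7 CPM after knockdown, with overlap (log2 change -0.05, SE 0.083, adjusted p 0.697). That COL4A5 passed and COL4A6 did not does not show that they differ. The COL4A5 to COL4A6 ratio ran from 1.91 to 2.13 in the controls and from 1.58 to 2.19 after knockdown (exact two-sided permutation test, p = 0.200, adjusted over 4 ratios 0.200), with replicate 1 the highest knockdown value: the log2 difference was -0.16, and -0.25 without BOLA3-L knockdown replicate 1. The COL4A1 to COL4A2 ratio ran from 0.532 to 0.574 and from 0.492 to 0.536 (exact two-sided permutation test, p = 0.0857, adjusted 0.171).

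Of the 4 laminin chains on the list 3 fell, by small amounts, and the 3 linkers HSPG2, AGRN and NID1 did not pass. The 3 falls are 42.9% of the 7 tested genes of this role, against 15.6% of all tested genes. Laminin-511 and laminin-521 join the alpha 5 chain (LAMA5) and the gamma 1 chain (LAMC1) with the beta 1 chain (LAMB1) or the beta 2 chain (LAMB2). LAMB1 (identifier 3912, chromosome 7, 107923799 to 108003161, minus strand) had 385, 387, 399 and 395 CPM in the controls and 312, 324, 331 and 326 CPM after knockdown. The groups were well apart (log2 change -0.28, SE 0.033, edgeR adjusted p 4.5e-06). LAMC1 (identifier 3915, chromosome 1, 183023420 to 183145592, plus strand) had 468, 482, 485 and 487 CPM in the controls and 435, 401, 423 and 403 CPM after knockdown, again without overlap (-0.21, SE 0.035, adjusted p 0.00015).

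LAMB2 (identifier 3913, chromosome 3, 49121114 to 49133050, minus strand) had 104, 109, 115 and 117 CPM in the controls and 95.3, 97.7, 104 and 101 CPM after knockdown. The lowest control stood just above the highest knockdown library (log2 change -0.16, SE 0.045, edgeR adjusted p 0.00973), and the call was lost on log2(FPKM + 1) with no minimum (adjusted p 0.0607; 0.000817 to 0.0607 over its 19 alternatives). LAMA5, the chain they share, had 617, 663, 676 and 651 CPM in the controls and 528, 595, 691 and 646 CPM after knockdown. Its knockdown libraries spread from 528 in replicate 1 to 691 in replicate 3 and enclosed the controls, and the log2 change of -0.08 (SE 0.062) did not pass (edgeR adjusted p 0.338).

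LAMA3 and LAMB3, which encode chains of laminin-332, the laminin of hemidesmosomes, fell as well, LAMA3 by 0.24 on the log2 scale and LAMB3 by 0.62. With their partners COL17A1, ITGA6 and ITGB4, 5 of 5 tested genes of that list fell (median log2 change -0.40). Over all tested genes 15.6% fell. Within each library the LAMB3 to LAMB1 ratio ran from 0.547 to 0.566 in the controls and from 0.400 to 0.459 after knockdown, a difference of -0.35 on the log2 scale. The groups did not overlap, so LAMB3 was lower relative to LAMB1 in 4 of 4 knockdown libraries (exact two-sided permutation test, p = 0.0286, the smallest 70 assignments allow). Adjusted over the 4 ratios, which were chosen with the gene values known, this was 0.114. With only this ratio at the smallest p, no lower adjusted value was possible, so the adjustment decides nothing here. The LAMA3 to LAMA5 ratio overlapped, with 0.244 to 0.261 and 0.210 to 0.262 (exact two-sided permutation test, p = 0.143, adjusted 0.191). Replicate 1 had the highest knockdown value, and the log2 difference was -0.15, or -0.22 without BOLA3-L knockdown replicate 1.

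**Figure D3:**
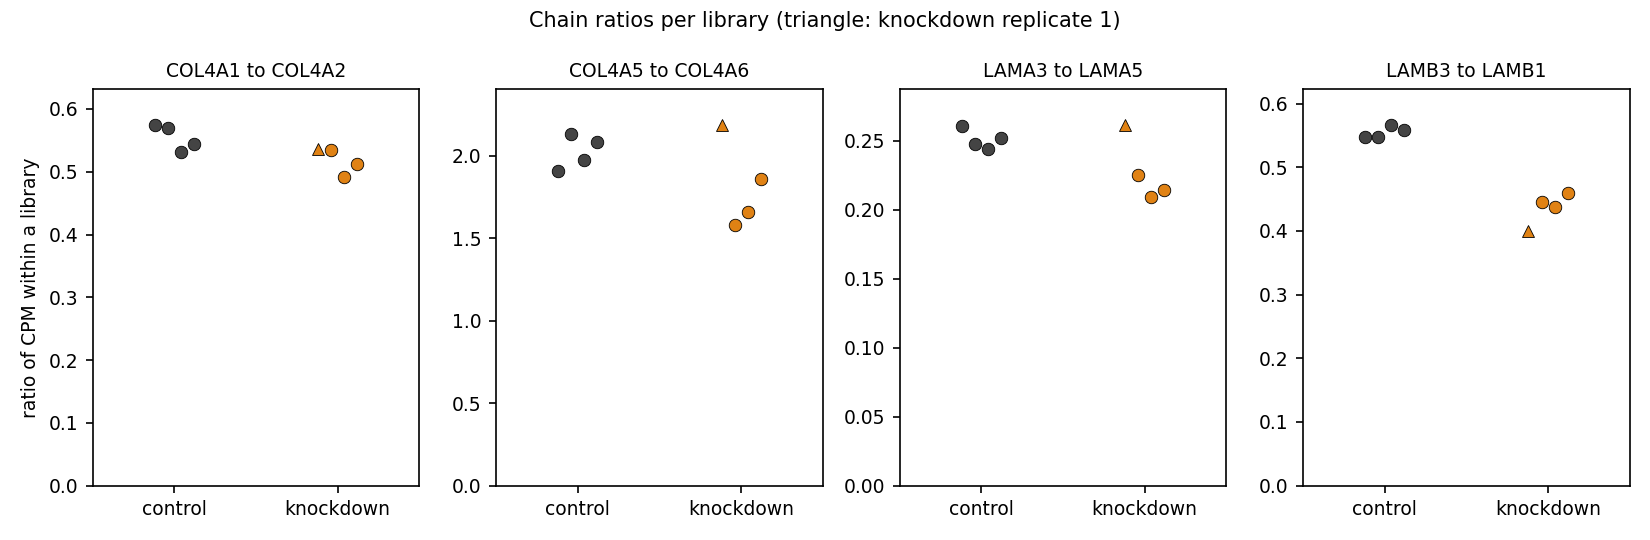
Ratio of the CPM of 2 chains within each library, in 4 control libraries (grey) and 4 knockdown libraries (orange, replicate 1 as a triangle), with axes from 0. The LAMB3 to LAMB1 ratio is lower in every knockdown library, while the other 3 ratios overlap between the groups.

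HSPG2 encodes perlecan, the large heparan sulfate proteoglycan of basement membranes, and stood at 159.9 ± 10.8 CPM in the control group and 166 ± 17.7 CPM in the knockdown group (SD, n = 4 each; log2 change 0.05, edgeR adjusted p 0.569). AGRN encodes agrin, a proteoglycan that joins laminin to dystroglycan, and had 370.1, 395, 405 and 406 CPM in the controls and 331, 388, 401 and 404 CPM after knockdown. Knockdown replicate 1 was again the lowest, and the other 3 lay within the range of the controls (log2 change -0.05, SE 0.053, adjusted p 0.52). NID1 encodes nidogen-1, which bridges laminin and collagen IV. It was low, with 116 counts in all control libraries and 142 in all knockdown libraries (log2 change 0.22, SE 0.32, adjusted p 0.642).

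Among the fibrillins and latent TGF-beta binding proteins 0 of 5 tested members passed in edgeR. The smallest adjusted p of the 5 was that of LTBP3, which tethers latent TGF-beta to microfibrils. LTBP3 had 89.2, 99.5, 92.3 and 93.8 CPM in the controls and 74.3, 86.6, 87.7 and 92.3 CPM after knockdown (log2 change -0.14, SE 0.057, adjusted p 0.0776), and DESeq2 called 0 of the 5. LTBP4 had 65.3 ± 1.47 CPM and 60.6 ± 7.76 CPM, and LTBP2 had 8.88 ± 0.968 CPM and 9.08 ± 1.12 CPM (SD, n = 4 each). FBN1, the main fibrillin of elastic tissue, and LTBP1 were near 1 CPM, with 1.34 ± 0.264 CPM and 1.35 ± 0.211 CPM for the first and 0.626 ± 0.164 CPM and 0.647 ± 0.168 CPM for the second. FBN2, the fibrillin of developing tissue, had counts of 16, 4, 11 and 4 in the 4 controls and 1, 4, 4 and 1 in the 4 knockdown libraries. It was too low to be tested, and with no filter on low counts its adjusted p was 0.0232.

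With offsets corrected for the GC content of each gene, 5 genes that had not passed were called as falls: LTBP3 (log2 change -0.16, adjusted p 0.000592; 0.000592 to 0.274 over its 19 alternatives), COL4A1 (-0.15, 0.00531; 0.00531 to 0.224), LTBP4 (-0.13, 0.00747; 0.00747 to 0.739), LAMA5 (-0.10, 0.0129; 0.0129 to 0.837) and AGRN (-0.07, 0.0464; 0.0464 to 0.786). With these offsets 41.6% of all tested genes were called and 21.4% fell, against 30.7% and 15.6% without them, so calls rose over the whole table. Left uncorrected but without BOLA3-L knockdown replicate 1, the log2 changes of these genes, in the same order, were -0.08, -0.08, -0.02, -0.02 and 0.01, and none of the 5 passed. The part of GC content in these 5 values was not tested further.

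Of the fibulins, calcium-binding glycoproteins of elastic fibres and basement membranes, 1 of 2 tested members rose. FBLN1 (identifier 2192, chromosome 22, 45502883 to 45601135, plus strand) encodes fibulin-1, which binds fibronectin and laminin. It had 35.1, 34.4, 34.2 and 32.5 CPM in the controls and 44.8, 45.5, 42.7 and 47.1 CPM after knockdown. All knockdown libraries lay above all controls (log2 change 0.40, SE 0.052, edgeR adjusted p 1.2e-05). EFEMP2, or fibulin-4, had 1.42 ± 0.353 CPM and 1.64 ± 0.382 CPM (SD, n = 4 each; adjusted p 0.518). EFEMP1, or fibulin-3, had 5 counts in all control libraries and 6 in all knockdown libraries.

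Levels can be set against each other between genes only per length, for which the deposited FPKM values (fragments per kilobase, scaled by library size) were used. THBS1 led the list with 479 ± 14.9 FPKM in controls and 501 ± 16.1 FPKM after knockdown (SD, n = 4 each). The laminin-511 chains followed, with LAMC1 at 60.2 ± 1.11 FPKM, LAMB1 at 59.8 ± 0.987 FPKM and LAMA5 at 55.9 ± 2.25 FPKM in controls. LAMC1 and LAMB1 did not differ beyond their SD on this scale, but per kilobase of the longest GENCODE v29 transcript LAMB1 (67.9 CPM) stood above LAMC1 (60.9 CPM). AGRN was next at 48.1 ± 2.07 FPKM. FN1 and LAMB2 stood level in controls (19.4 ± 0.492 FPKM and 19.4 ± 0.998 FPKM), and after knockdown FN1 was at 36.6 ± 0.946 FPKM and LAMB2 at 17.5 ± 0.624 FPKM.

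The order of the genes shifted where called genes moved. By FPKM, MATN2 was the 17th of the 38 genes in controls (7.68 ± 0.311 FPKM) and the 11th after knockdown (15.7 ± 0.528 FPKM), while TNC went from 11th (15.3 ± 0.430 FPKM) to 15th (9.94 ± 0.634 FPKM). COL12A1 and COL4A2 were the most abundant of the collagens among the 38 genes in controls (16.7 ± 0.682 FPKM for COL4A2), and COL1A1 was at 1.96 ± 0.384 FPKM. The lengths behind the FPKM values were close to the longest GENCODE v29 transcript for most members, but that of COL4A1 (15595 bases) was 2.36 times the longest transcript (6616 bases) and that of FBLN1 1.66 times. The FPKM of these 2 genes are therefore low relative to the others, and the place of COL4A1 below COL4A2 depends in part on that length. The length behind the THBS1 FPKM was 0.745 times its longest transcript, so its FPKM is high relative to the others. Per kilobase of the longest GENCODE v29 transcript THBS1 still led the list in controls (359 CPM).

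**Figure D4:**
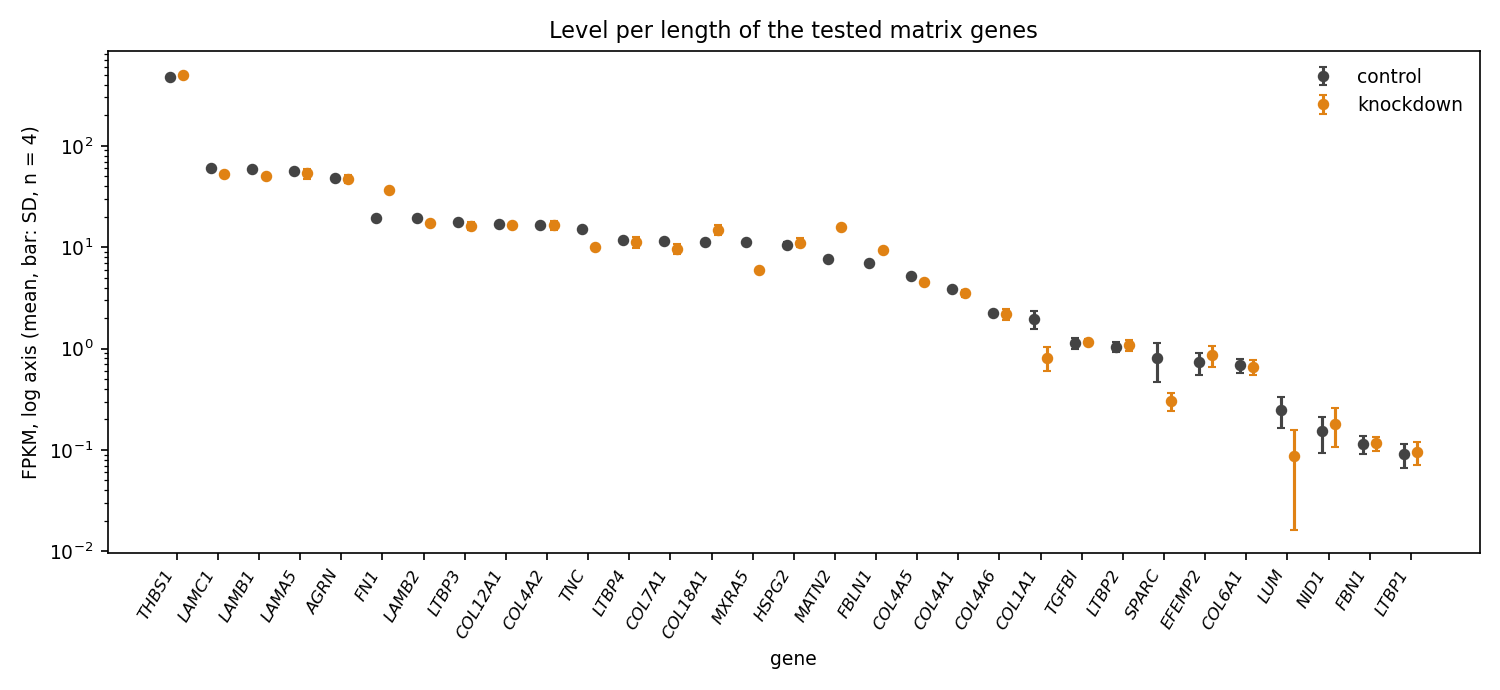
FPKM of the 31 tested matrix genes in control (grey) and knockdown (orange) libraries on a log axis, as mean and SD of 4 libraries, in order of the control mean. THBS1 lies far above the other genes, FN1 and MATN2 are higher after knockdown, and TNC, MXRA5, COL1A1, SPARC and LUM are lower.

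Genes that process, crosslink and bind the matrix were read from lists of their own. Of 20 tested genes for collagen modification, folding and export 3 rose and 3 fell (median log2 change 0.02). That is 15.0% each way, near the 15.0% that rose and 15.6% that fell over all tested genes. The rises were CRTAP, a subunit of the prolyl 3-hydroxylase complex (0.15, edgeR adjusted p 0.00512), the export coat subunit SEC23A (0.17) and the prolyl 4-hydroxylase subunit P4HB (0.15), and the fall with the smallest p was that of MIA3, which loads collagen into export carriers (-0.20). The P4HB groups overlapped, with 419.7 CPM in knockdown replicate 1 and 420.4 CPM in control replicate 3. The collagen chaperone SERPINH1 stood at 246 ± 4.47 CPM and 250.1 ± 9.78 CPM (SD, n = 4 each; adjusted p 0.661).

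Of 10 tested genes for matrix processing and crosslinking 3 fell and 1 rose (median log2 change -0.20). The shares are 30.0% and 10%, against 15.6% and 15.0% of all tested genes, and they rest on only these 10 genes. TGM2, the transglutaminase that crosslinks fibronectin and other matrix proteins, had 562, 573, 582 and 565 CPM in the controls and 327, 368, 370.1 and 366 CPM after knockdown. It fell in the knockdown libraries while its substrate FN1 rose (log2 change -0.67, SE 0.039, edgeR adjusted p 4.4e-10). The lysyl oxidase LOXL2 had a log2 change of -0.46, the procollagen protease BMP1 one of -0.22 and LOXL1 one of 0.31, and these 3 passed as well.

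Of 19 tested matrix receptors 8 fell and 4 rose (median log2 change -0.08). The shares are 42.1% and 21.1%, against 15.6% and 15.0% of all tested genes. ITGB1, the beta 1 integrin chain shared by most receptors for collagen, laminin and fibronectin, had 558, 547, 530.0 and 544 CPM in the controls and 436, 428, 419 and 411 CPM after knockdown (log2 change -0.36, SE 0.033, edgeR adjusted p 1.5e-07). CD44, the hyaluronan receptor, fell by 0.28 on the log2 scale. ITGA5, the alpha chain of the main fibronectin receptor and named after its values were seen, went from 49.0 ± 1.94 CPM to 39.4 ± 3.81 CPM (SD, n = 4 each; log2 change -0.31, edgeR adjusted p 0.00094). The 2 rises with the smallest p were the syndecan SDC4 (0.42), which binds fibronectin through heparan sulfate, and DAG1 (0.37), the dystroglycan that binds laminin and agrin.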

How the data were processed

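Reads of 8 libraries were filtered with fastp, per the labels' series design text, and the genome build is hg38, per the submitters' processing notes. Which aligner, counter, strand setting and annotation were used is not given in the sources used here. Raw counts per gene were deposited by the authors with a second table of FPKM values, which for all 15852 genes follow from the counts through 1 length per gene (tolerance 1e-05) and so hold no further information.

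After TMM normalization, filterByExpr kept 11841 genes, over which edgeR compared the groups by its quasi-likelihood F-test with robust dispersions (adjusted p under 0.05, Benjamini-Hochberg). CPM use the effective library sizes, and the SE is the absolute log2 change over the square root of F. BOLA3 and the chain ratios were compared with an exact permutation test. The alternatives were RLE and upper quartile normalization, no filter or 1 CPM in 4 libraries, DESeq2, a replicate block, leaving out any 1 library, limma on log2(FPKM + 1) with and without a minimum of 0.5 FPKM in 4 libraries and on log2(FPKM + 0.1), and offsets corrected for GC content or transcript length (longest GENCODE v29 transcript, found for 97.8% of tested genes). The steps were tested on simulated data with 200 changed genes. In these, edgeR recovered 68% of 1.25-fold changes, 96% of 1.5-fold changes and 100% of 2-fold and 3-fold changes, with 9 false calls. No library with low GC-rich transcripts was simulated. A further gene of the lists is not reported here. The members and the lists were chosen with earlier results of these data known. By the rule for named genes, each of the 38 members is accounted for, with values per library for those past the threshold and for chains of the same complexes, and at most 4 genes by smallest p come from each further list, apart from those said to be chosen later and SERPINH1. Sequences and coordinates are from RefSeq on GRCh38.p14. A gene shares sequence where 75-base windows, taken every 25 bases, occur in transcripts of other genes. Versions were Python 3.11.15, R 4.3.3, DESeq2 1.42.0, limma 3.58.1 and edgeR 4.0.16.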

Additional observations from a re-analysis of the deposited data

Results flagged for a closer look

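COL4A2 stood at 115 CPM in control replicate 3, while the other 3 controls lay between 106.0 and 106.4 CPM, so that the gap makes up most of the range of the group. It was the only such value among 64 groups of 4 libraries (31 matrix genes and BOLA3 in both conditions), and chance flags about 1 in 20 groups. The knockdown libraries reached 112 CPM, and COL4A2 did not pass the test with or without that control.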

How the results depend on the processing

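In all 19 alternatives 4 matrix genes rose, and no called direction reversed in any of them. The number that fell, 10, ran from 7 on log2(FPKM + 1) with no minimum to 15 with GC-corrected offsets, settings in which the share of all genes that fell was 8.36% and 21.4% (15.6% as reported), was 11 with no filter on low counts, and lay between 9 and 12 when single libraries were left out, the 12 coming without BOLA3-L knockdown replicate 4, with LTBP3 (adjusted p 0.0280) and COL4A1 (0.0427) gained. Of the 14 called genes 11 kept their call wherever an alternative gave a value, and LUM, COL7A1 and LAMB2 lost it in at least 1. BOLA3 passed in every alternative. With the replicate number as a block 4 rose and 11 fell, LTBP3 being the gain (adjusted p 0.0450). Same-numbered libraries deviated together little or not at all (correlations from -0.0444 to 0.0876), and not every library correlated best with its own number. Pairs with unlike numbers had correlations from -0.0701 to 0.0691. With 4 libraries per group this cannot exclude a pairing. Depth limits POSTN, BGN, VCAN, COL5A1, COL6A2, EFEMP1 and FBN2, of which with no filter only FBN2 was called (-1.83, adjusted p 0.0232).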

Other observations

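Matrix genes outside the 38 were mostly silent: of 81 further matrix genes 66 were listed, and 41 of these stayed under 1 CPM in every library. Of these further genes 26 were tested, and 5 rose and 5 fell (median log2 change -0.04). That is 19.2% each way, against 15.0% that rose and 15.6% that fell over all tested genes. CCN1, a matricellular protein that binds integrins, had 549 ± 10.2 CPM in the control group and 671 ± 11.9 CPM in the knockdown group (SD, n = 4 each; log2 change 0.29, edgeR adjusted p 1.2e-06). TINAGL1, a basement membrane glycoprotein, had 207, 213, 206 and 207 CPM in the controls and 139, 157, 164 and 165 CPM after knockdown, a log2 change of -0.41 (SE 0.047, edgeR adjusted p 2.7e-06) with no overlap. THBS3, a thrombospondin much less abundant than THBS1, rose from 13.7 ± 1.13 CPM to 20.8 ± 1.60 CPM (SD, n = 4 each; log2 change 0.60, edgeR adjusted p 1.1e-05). COL16A1, a collagen that associates with fibrils, fell from 3.28 ± 0.805 CPM to 1.55 ± 0.276 CPM (SD, n = 4 each; -1.07, edgeR adjusted p 0.00047).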
